A study of Mus musculus with 16 samples.

Results

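Rod photoreceptors of 18-month-old mice were compared with those of 3-month-old mice, using all 4 libraries of each age, which are 8 of the 16 libraries of an age series sampled at 3, 12, 18 and 24 months of age (here 3M, 12M, 18M and 24M). Every library came from C57BL/6J mice that carry Nrlp-GFP, a green fluorescent protein reporter under the promoter of the rod gene Nrl, so 3M and 18M share genotype and reporter and differ in age alone as labelled. Cells were sorted on the reporter, and sorted cells were sorted again to check for a purity over 98%. Libraries were made from 4 ng of total RNA with 13 PCR cycles and a stranded kit for small inputs, and read as pairs of 125 bases. Replicates are described as biological, but the sources used here do not tell whether 1 replicate is 1 mouse or several pooled. If they are not separate animals, the p-values measure only the spread between these libraries.

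Rods are the sensory neurons of dim-light vision. Light absorbed by the visual pigment closes cation channels through transducin and a phosphodiesterase, and the outer segment that holds this machinery is made of stacked membrane discs that are renewed throughout life. The membranes are rich in polyunsaturated phospholipid, the inner segment is packed with mitochondria, and the cell neither divides nor is replaced, so its transcripts at an old age come from cells as old as the animal.

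The 8 libraries held 20724678 to 28779012 estimated counts. Rod transcripts were high in each of them: Sag, encoding rod arrestin, was at 4000 to 5910 CPM (counts relative to library size, with edgeR's TMM factors) and Pde6a, a subunit of the rod phosphodiesterase, at 3890 to 4750 CPM. 18M replicate 3 stood apart, with longer transcripts relatively higher (a slope of 0.084 in log2 CPM per doubling of transcript length, against -0.044 to 0.0005 in the other libraries of both ages), and it is absent from the authors' normalized table. Calls that are lost without it are given both ways.

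Of 12177 genes tested with edgeR's quasi-likelihood test, 322 (2.64%) passed a Benjamini-Hochberg adjusted p under 0.05 and are said below to have risen, fallen or been called. Of these, 205 were higher at 18M (1.68% of the genes tested) and 117 were lower (0.961%). The change was at least 2-fold for 73 of the higher and 33 of the lower genes, and the median change was 0.79 and -0.72 on the log2 scale. The 4 libraries of 18M did not overlap the 4 of 3M for 319 of the called genes, against 1666 (13.7%) of all genes tested. Without 18M replicate 3, 151 genes were higher and 80 lower, and without 12M replicate 4, which enters the shared estimate of spread, 309 and 205. Changed genes were mostly of modest abundance: 16 of the 1733 genes over 100 CPM were called, and 1 of the 87 over 1000 CPM. Genes that are not protein-coding made up 38 of the calls (11.8%), of which 32 were higher and 6 lower, and 1891 of the genes tested (15.5%). Gene lists are counted below over the members that reached 5 CPM in 4 libraries of any age. A gene low at 1 age passes this minimum only through an age where it is high, so the counts and medians of lists are descriptions of those members, not of whole lists.

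**Figure D1:**
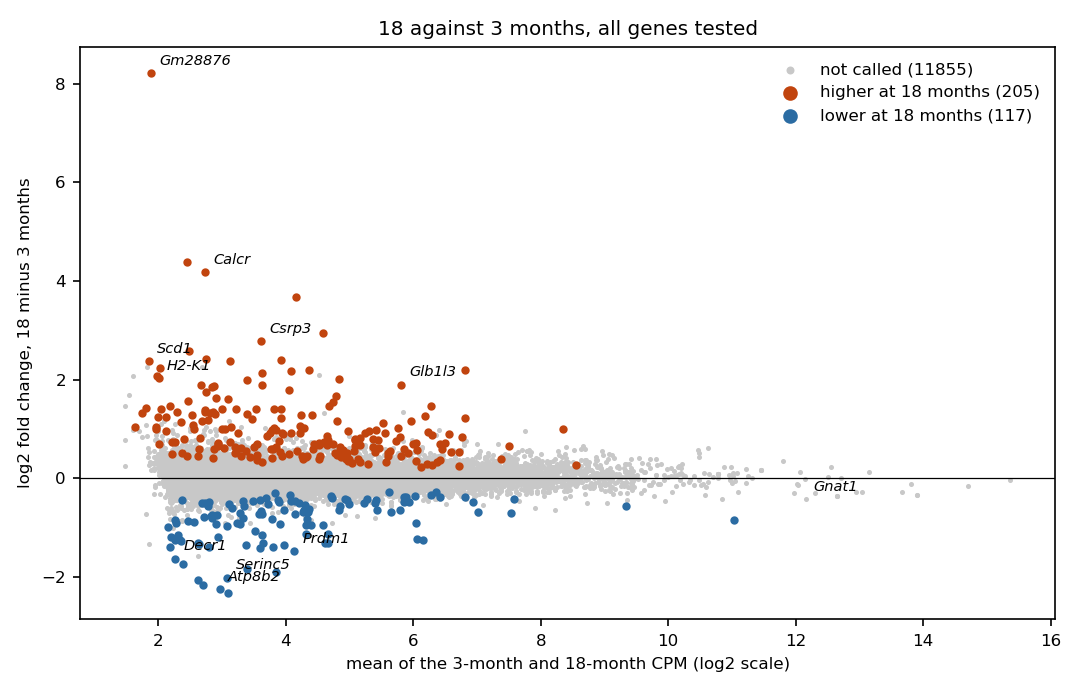
Each point is 1 of the 12177 genes tested, with the mean of its 3M and 18M CPM on a log2 axis and the fitted log2 fold change of 18M over 3M on the other axis. Red points are the 205 genes that rose, blue points the 117 that fell, and the abundant rod gene Gnat1 lies among the genes that were not called.

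Signal reception and gene control gave several of the rises. Calcr, the G protein-coupled receptor for the hormone calcitonin, was at 0.912, 0.604, 0.652 and 0.605 CPM in the 4 libraries of 3M. At 18M it was at 14.2, 9.29, 17.8 and 9.3 CPM. The groups did not overlap, and the lowest library of 18M was over 10 times the highest of 3M, and log2 expression rose by 4.18 ± 0.43 (SE; edgeR adjusted p = 1.8e-05). It was already at 6.82 ± 3.07 CPM at 12M (mean ± SD, n = 4, as for all later means) and was at 15.1 ± 5.6 CPM at 24M. The step from 3M to 12M was called (log2 3.29, edgeR adjusted p = 0.0004), whereas those from 12M to 18M (0.89) and from 18M to 24M (0.25) were not. These steps share the 3M or 18M libraries with the present comparison and are set beside it as values. Another calcium gene, Itpr2, which encodes a calcium release channel of the endoplasmic reticulum, rose from 48.8 ± 3.72 to 79.0 ± 6.76 CPM, but was not called by limma on the authors' gene CPM (adjusted p = 0.17 with either pseudocount). Calcr and Itpr2 were the only called genes of 31 tested in a list of calcium stores and calmodulin kinases (6.45%, beside 2.64% of all genes tested). The list's median log2 fold change was 0.13, against 0.007 over all genes tested.

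The bases before the start of Calcr are shown because its rise is among the steepest of the protein-coding genes described here. They cover chr6:3764714-3764963 of GRCm38.p6 on the minus strand, as in RefSeq, and end at the base before the annotated start. The letters TAATCC, the core bound by the photoreceptor factor CRX, and TGCTGA, a short element bound by NRL, were searched on both strands and counted independently, and any match would be in capitals.
Calcr: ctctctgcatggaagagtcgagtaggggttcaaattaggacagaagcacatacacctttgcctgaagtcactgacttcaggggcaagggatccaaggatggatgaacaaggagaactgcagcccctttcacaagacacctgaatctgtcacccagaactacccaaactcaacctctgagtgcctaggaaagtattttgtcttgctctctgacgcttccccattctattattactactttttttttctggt
Neither set of letters is in this window. In the RefSeq table of 32851 promoter windows of 300 bases, 7.06% held the CRX core and 19.5% the NRL element. Among windows of tested genes the shares were 6.16% and 15.2%, among 167 windows of genes that rose 10.2% and 21.6%, and among 117 windows of genes that fell 5.98% and 16.2%. These shares are a description of letters and carry no test.

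Prdm1, which encodes the repressor Blimp1 that favours the photoreceptor over the bipolar cell fate in the developing retina, fell. Its 3M libraries were at 26.5, 26.8, 25.3 and 24.4 CPM, and those of 18M at 9.81, 10.1, 8.24 and 8.86 CPM. Each group was tight and far from the other, and the fitted log2 difference was -1.48 ± 0.15 (edgeR adjusted p = 2.1e-05). It was the only called gene of 17 photoreceptor transcription factors (5.88%, beside 2.64% of all genes tested). For Crx, the homeobox activator of photoreceptor genes, the log2 fold change was -0.17 (edgeR adjusted p = 0.53), and for Nr2e3, which represses cone genes in rods, 0.02 (edgeR adjusted p = 0.95). Nrl, whose promoter drives the reporter, was at 718 ± 34.3 CPM at 3M and 589 ± 69.7 CPM at 18M, a log2 fold change of -0.29 that was not called (edgeR adjusted p = 0.43). Elk3, an ETS family transcription factor, rose from 1.43 ± 0.441 to 6.75 ± 0.25 CPM. Its gene overlaps Cdk17 on the opposite strand over 19658 bases, and Cdk17 was not called (-0.32). The sources used here do not state whether counting used strand, so reads from such partners cannot be told apart.

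Among listed genes of Wnt receptor control, Rnf43 rose, which encodes a membrane ubiquitin ligase that removes Frizzled receptors from the cell surface. It was at 3.97, 4.6, 5.78 and 3.98 CPM at 3M and at 20.7, 18.9, 17.4 and 23.2 CPM at 18M. The groups did not overlap (log2 fold change 2.13 ± 0.15, edgeR adjusted p = 4.5e-07). Rnf43-206, a transcript annotated as keeping an intron, held 53.1% ± 4.8 of the gene's estimated counts at 3M and 50.0% ± 3.71 at 18M. The protein-coding transcript Rnf43-201 held 27.0% ± 2.32 and 24.3% ± 4.97. Fzd5, a Frizzled receptor, rose by much less, from 30.3 ± 3.43 to 39.6 ± 4.17 CPM, its groups overlapped, and its call was lost on leaving out 5 of the 16 libraries in turn. They were the 2 called genes of 14 tested in the list (14.3%, beside 2.64% of all genes tested). In the list of insulin and mTOR signalling, Irs1, the adaptor of the insulin receptor, rose from 9.16 ± 4.64 to 21.2 ± 1.17 CPM, with 3M replicate 4 at 16.1 CPM and the other 3M libraries at 6.35 to 7.62. Sestd1, a protein with spectrin and lipid-binding domains, fell from 10.0 ± 1.14 to 3.82 ± 0.576 CPM. Irs1 and Sestd1 were the only called genes of the 38 tested in that list (5.26%, beside 2.64% of all genes tested).

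Genes of class I antigen presentation, by which peptides cut from cytosolic proteins are shown on the cell surface, rose at 4 of the 13 members tested, out of 23 listed (30.8%, beside 1.68% of all genes tested), and none fell. H2-K1 and Tap2 were under the 5 CPM minimum in every 3M library and were tested only because they are higher at older ages. H2-K1, a classical class I heavy chain, was at 1.2, 1.36, 1.51 and 2.29 CPM at 3M and at 6.85, 7.03, 5.24 and 6.7 CPM at 18M. Every 18M library was above every 3M library, and the fitted log2 difference was 2.03 ± 0.26 (edgeR adjusted p = 0.00016). Tap2, a subunit of the transporter that brings peptides into the endoplasmic reticulum, rose from 2.42 ± 0.392 to 6.7 ± 0.744 CPM (1.47 ± 0.15). Erap1, the protease that trims those peptides, rose from 11 ± 0.762 to 26.9 ± 3.44 CPM (1.29 ± 0.14), and it overlaps Cast on the opposite strand over 834 bases. H2-Q4, a class Ib heavy chain, rose from 6.58 ± 0.664 to 10.9 ± 1.47 CPM (0.73 ± 0.13). The list's median was 0.15, so the other members were spread close to 0. Among listed members too low to test, B2m was at 0.387 ± 0.475 CPM at 3M and 0.596 ± 0.254 CPM at 18M. Tap1 was at 0.543 ± 0.0959 and 0.643 ± 0.0597 CPM, and Psmb8 at 0.212 ± 0.106 and 0.327 ± 0.0986 CPM. Whether antigen presentation itself changed was not tested. H2-K1 and H2-Q4 belong to a family of near-identical genes between which estimated counts can be split, so their single values are uncertain.

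Nod2, a cytosolic receptor for fragments of bacterial peptidoglycan, also rose. Its libraries were at 2.12, 2.11, 3.67 and 3.33 CPM at 3M and at 16.7, 15.2, 12.9 and 13.6 CPM at 18M. The gap between the groups was wide (log2 fold change 2.38 ± 0.19, edgeR adjusted p = 1.5e-06). It was the only called gene of 18 in a list of interferon response and innate sensing (5.56%, beside 2.64% of all genes tested). The list's median was 0.08. Ly75, an endocytic receptor known from dendritic cells, rose from 7.33 ± 0.6 to 33.7 ± 3.07 CPM, and the 18M libraries lay at 30.9 to 38.1 CPM. None of 13 genes known from the response of the retina to photoreceptor injury was called, though 12 of them were above 0 and the median was 0.22.

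Because such genes are also used by immune cells, the summed CPM of microglial and myeloid markers is given beside them. It was 35.1 to 40.2 CPM at 3M and 39.9 to 50.4 CPM at 18M, a ratio of 1.17 (exact two-sided permutation p = 0.0571, 0.314 after Benjamini-Hochberg adjustment over 11 marker lists). The defining microglial genes P2ry12, Tmem119, Aif1, C1qa, C1qb, C1qc and Tyrobp were each under 1 CPM. None of the 3 of these 18 markers that were abundant enough to test was called. The part of such cells in the rises was not tested, and in bulk samples more cells of a type and more RNA per cell cannot be told apart.

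**Figure D2:**
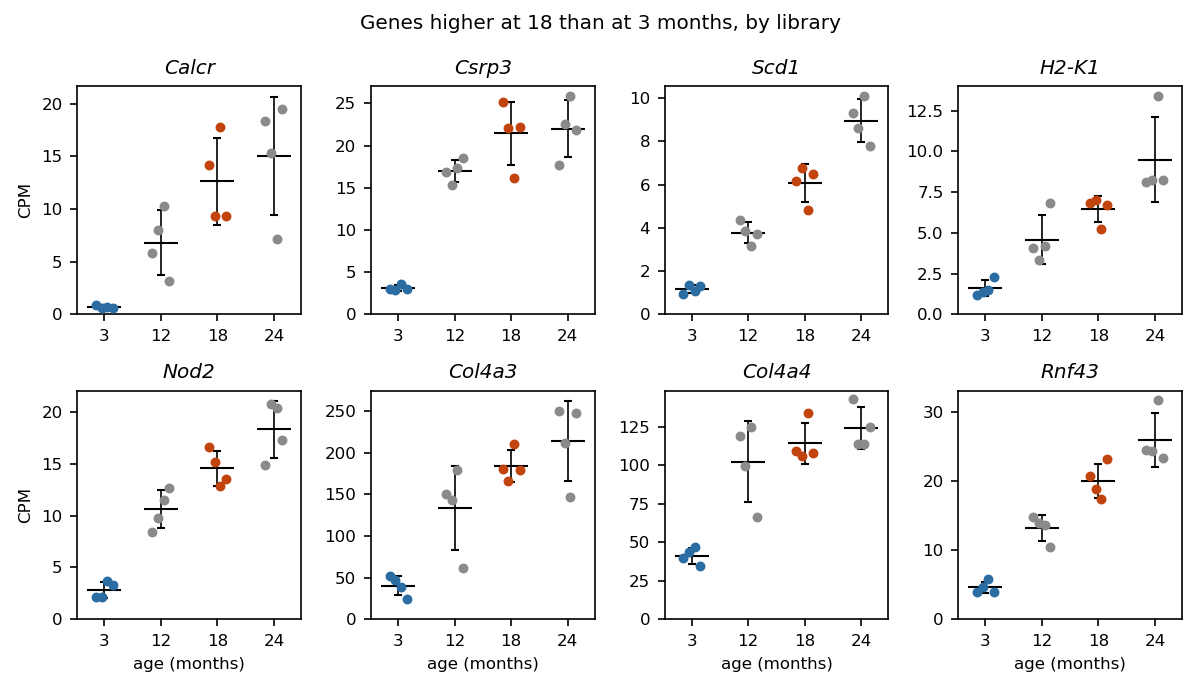
Each panel plots the CPM of 1 gene by age in months, with a point for each of the 4 libraries of an age, a line at their mean and a bar of 1 SD. In all 8 panels the 18M libraries (red) lie above the 3M libraries (blue), and the 12M and 24M libraries are in grey.

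Among genes of the basement membrane, matrix and adhesion, 47 were listed and 16 tested. Of those tested, 4 rose (25.0%, beside 1.68% of all genes tested) and 2 fell (12.5%, beside 0.961%). Col4a3 and Col4a4 encode chains that join in the collagen IV network of specialised basement membranes, among them that of the kidney glomerulus. Col4a3 was at 52.0, 46.7, 38.4 and 24.5 CPM at 3M and at 181, 166, 211 and 179 CPM at 18M. Col4a4 was at 39.7, 43.9, 46.6 and 34.3 CPM at 3M and at 109, 106, 134 and 108 CPM at 18M. Neither gene's groups overlapped, and the log2 fold changes were 2.19 ± 0.29 (edgeR adjusted p = 0.00023) and 1.47 ± 0.17 (edgeR adjusted p = 4.8e-05). Both changes were called at 12M against 3M as well (1.73 and 1.32), and between 12M and 18M neither was (0.46 and 0.16). The other listed collagen IV genes, Col4a1, Col4a2, Col4a5 and Col4a6, were too low to test. Col4a5 was at 0.719 ± 0.214 CPM at 3M and 0.91 ± 0.316 CPM at 18M.

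The 2 collagen genes lie head to head on chromosome 1, Col4a3 at chr1:82586921-82722059 on the plus strand and Col4a4 at chr1:82448423-82586849 on the minus strand (GENCODE on GRCm38), with 71 bases between their starts. The stretch at chr1:82586835-82586935, minus strand, GRCm38.p6, from RefSeq, is shown because both genes that rose begin at its edges as GENCODE draws them. Capitals mark the bases between those starts. RefSeq carries Col4a4 on to chr1:82587034, past the start of Col4a3, so there the genes overlap.
Col4a4: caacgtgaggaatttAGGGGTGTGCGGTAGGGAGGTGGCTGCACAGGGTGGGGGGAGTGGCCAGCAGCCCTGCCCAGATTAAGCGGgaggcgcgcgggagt
Neither the CRX core nor the NRL element is in this stretch. The 3′ part of Col4a3 overlaps C430014B12Rik on the opposite strand over 30132 bases, and that gene rose too (1.9, edgeR adjusted p = 0.00055), so their counts are not independent if strand was not used.

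Itgav, the alpha V integrin that takes part in binding matrix and in outer segment uptake, rose from 12.9 ± 2.21 to 24.4 ± 0.779 CPM (0.92 ± 0.1). Lamc1, the gamma 1 chain of laminin, rose from 25.7 ± 2.31 to 36.6 ± 1.44 CPM (0.51 ± 0.08). Htra1, a secreted serine protease that acts on matrix proteins, fell. It was at 18.0, 19.6, 18.2 and 25.1 CPM at 3M and at 8.35, 9.39, 5.96 and 7.08 CPM at 18M, without overlap (-1.39 ± 0.26, edgeR adjusted p = 0.006). Mmp2, the gelatinase A that degrades collagen IV, fell by 0.48 on the log2 scale. The summed markers of endothelial cells and pericytes, which also make basement membrane, were 60.0 ± 8.82 CPM at 3M and 66.0 ± 3.18 CPM at 18M, with ranges that overlapped. The ratio of the means was 1.1 (exact two-sided permutation p = 0.2286). Cdh5, Cldn5, Emcn and Esam were among 10 of the 21 markers that were under 1 CPM. The 4 markers abundant enough to test were all above 0, from 0.03 for Pecam1 to 0.28 for Flt1. Their median was 0.19, and none was called. The part of these cells was not tested.

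Among membrane lipid genes, 27 phospholipid flippases, scramblases and Serinc proteins were listed and 14 tested, of which 3 fell (21.4%, beside 0.961% of all genes tested) and none rose, with a median of 0.04. Serinc5, a membrane protein that scrambles phospholipids and is known for restricting retroviruses, was at 14.3, 13.1, 11.7 and 15.1 CPM at 3M. At 18M it was at 3.65, 3.61, 3.0 and 3.08 CPM, a narrow range well below every 3M library (-2.02 ± 0.12, edgeR adjusted p = 5.9e-08). Its mean was 5.56 ± 0.582 CPM at 12M and 2.58 ± 0.0534 CPM at 24M, and the step from 12M to 18M was not called (-0.73, edgeR adjusted p = 0.074). Atp8b2 and Atp9a encode P4-type ATPases, the family that moves phospholipids to the cytosolic leaflet. Atp8b2 was at 11.1, 11.1, 12.8 and 16.7 CPM at 3M and at 2.92, 2.86, 3.04 and 1.97 CPM at 18M (-2.25 ± 0.31, edgeR adjusted p = 0.0004). Atp9a was at 13.4, 14.9, 14.5 and 17.4 CPM at 3M and at 7.21, 6.58, 4.31 and 5.35 CPM at 18M (-1.36 ± 0.25, edgeR adjusted p = 0.0051). The groups of all these genes were apart.

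Scd1, the stearoyl-CoA desaturase that makes monounsaturated fatty acids, rose. It was the only called gene of 25 in fatty acid desaturation and elongation (4.0%, beside 2.64% of all genes tested). It was at 0.948, 1.36, 1.06 and 1.3 CPM at 3M and at 6.16, 6.78, 4.82 and 6.5 CPM at 18M. The groups were far apart (2.37 ± 0.16, edgeR adjusted p = 3.5e-07), and 18M replicate 3 was the lowest of its age. Decr1, the mitochondrial reductase needed to oxidise fatty acids with double bonds, fell. It was the only called gene of 22 in fatty acid oxidation (4.55%, beside 2.64% of all genes tested). Its libraries were at 6.89, 6.56, 7.09 and 8.52 CPM at 3M and at 1.9, 2.11, 3.21 and 2.12 CPM at 18M (-1.63 ± 0.2, edgeR adjusted p = 0.0001). No library of one age reached the range of the other.

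In cholesterol synthesis and transport, 2 of 32 genes rose (6.25%, beside 1.68% of all genes tested) and 1 fell (3.12%, beside 0.961%). Abca1, the transporter that exports cholesterol to lipoproteins, was at 77.0, 81.9, 75.4 and 77.9 CPM at 3M and at 127, 140, 154 and 139 CPM at 18M (0.84 ± 0.15, edgeR adjusted p = 0.0039). Cyp51, the lanosterol demethylase, rose from 27.6 ± 1.57 to 36.1 ± 1.65 CPM, and its call was lost on leaving out 6 of the 16 libraries, among them 18M replicate 3 (edgeR adjusted p = 0.055). Dhcr7, which catalyses the last step of cholesterol synthesis, fell from 12.9 ± 1.14 to 9.4 ± 0.744 CPM, and its call was lost on leaving out 4 libraries, 18M replicate 3 among them (edgeR adjusted p = 0.07). The Müller glia marker sum, whose cells are active in retinal lipid supply, overlapped between the ages, with 315 to 501 CPM at 3M and 387 to 537 CPM at 18M. The ratio of the means was 1.21, and 16 of the 18 tested markers were above 0 with a median of 0.29. The 1 called marker (5.56%, beside 2.64% of all genes tested) was Car2 (0.37), and it lost its call on leaving out any of 5 libraries. The part of these cells was not tested.

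**Figure D3:**
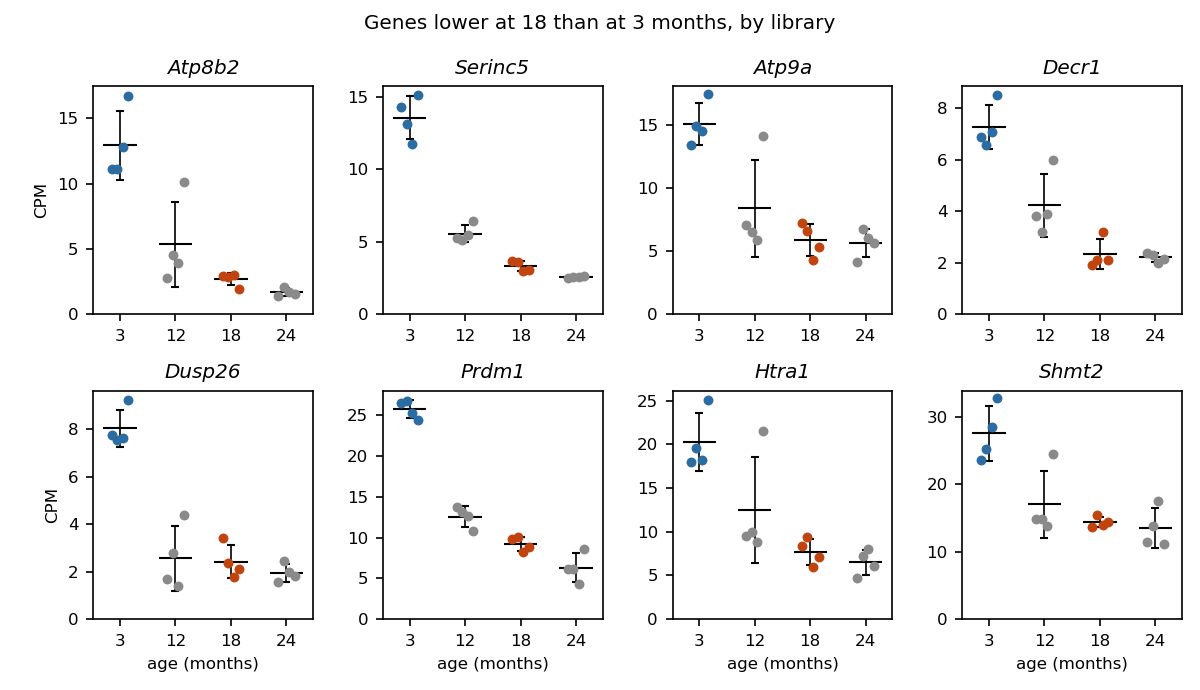
Each panel plots the CPM of 1 gene by age in months, with a point per library, a line at the mean of 4 libraries and a bar of 1 SD. In all 8 panels the 18M libraries (red) lie below the 3M libraries (blue). The same library, 12M replicate 4, is the highest of its age in every panel but that of Prdm1, where it is the lowest.

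In mitochondrial metabolism few genes were called. Shmt2, the mitochondrial enzyme that passes a carbon unit from serine to folate, fell, from 23.7, 25.3, 28.5 and 32.8 CPM at 3M to 13.7, 15.5, 14 and 14.4 CPM at 18M. Those 18M values were close together and below all of 3M (-0.94 ± 0.18, edgeR adjusted p = 0.0071). Idh3a, a subunit of the isocitrate dehydrogenase of the TCA cycle and a gene of inherited retinal degeneration, fell from 44.3 ± 3.81 to 33.0 ± 1.82 CPM (-0.43 ± 0.08, edgeR adjusted p = 0.0074). It was the only called gene of 27 in that cycle (3.7%, beside 2.64% of all genes tested), and 23 of the 27 were below 0. Cycs, somatic cytochrome c, fell from 30.2 ± 2.6 to 22.7 ± 2.79 CPM. It was the only called gene among 36 of complexes III to V (2.78%, beside 2.64% of all genes tested). Its call was lost on leaving out 6 of the 16 libraries, with an edgeR adjusted p of 0.11 without 18M replicate 3. All 36 of that list were below 0, with a median of -0.22, and 31 of 35 subunits of complex I were, with a median of -0.15 and no call.

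None of 15 transcripts of the mitochondrial genome was called, with a median of 0.16. The 78 cytosolic ribosomal protein genes had a median of -0.28 with 77 of them below 0, and none was called. Of 31 proteasome subunits 28 were below 0 with no call. The length slopes of the libraries were -0.041 to -0.016 at 3M and -0.044 to 0.084 at 18M (exact two-sided permutation p = 0.371), and their part in these medians was not tested.

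Among genes of stress defence, Cat, encoding the catalase that breaks down hydrogen peroxide, fell from 8.98 ± 1.06 to 5.33 ± 0.578 CPM (-0.75 ± 0.14, edgeR adjusted p = 0.0041). By limma on the authors' gene CPM it was not called (adjusted p = 0.19 and 0.18 with pseudocounts of 0.5 and 2). Nxnl2, a thioredoxin-like gene whose short form is a trophic factor for rods, was at 66.6, 66.7, 68.7 and 67.0 CPM at 3M and at 47.6, 48.0, 34.6 and 42.9 CPM at 18M. It fell with no overlap (-0.64 ± 0.13, edgeR adjusted p = 0.015), and without 18M replicate 3, its lowest library, the call was lost (-0.54, edgeR adjusted p = 0.055). They were the only called genes of 25 in antioxidant defence (8.0%, beside 2.64% of all genes tested). Hspa2, a chaperone of the HSP70 family best known from the testis, rose from 4.45, 5.13, 4.56 and 5.19 CPM to 26.7, 31.9, 18.8 and 24.5 CPM (2.4 ± 0.21, edgeR adjusted p = 3.2e-06). It was the only called gene of 34 chaperones (2.94%, beside 2.64% of all genes tested). None of 26 genes of the unfolded protein response or of 47 of autophagy and the lysosome was called.

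Of 27 genes of apoptosis and senescence, 2 rose (7.41%, beside 1.68% of all genes tested), and they act in opposite ways. Bcl2, the founding inhibitor of mitochondrial cell death, rose from 30.2 ± 2.61 to 52.2 ± 6.52 CPM (0.79 ± 0.15). Bcl2l11, the killer protein Bim that Bcl2 binds, was at 41.0, 43.5, 40.9 and 42.6 CPM at 3M and at 51.7, 55.3, 52.1 and 51.6 CPM at 18M (0.33 ± 0.07, edgeR adjusted p = 0.011). That rise was small, and the groups did not overlap. The call was lost with no filter on low counts (edgeR adjusted p = 0.17) and by limma on the authors' gene CPM (adjusted p = 0.2 with either pseudocount).

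DNA methylation genes gave 1 rise and 1 fall among 21 (4.76% each, beside 1.68% and 0.961% of all genes tested). Smug1, a glycosylase that removes uracil and oxidised pyrimidines from DNA, rose from 46.3 ± 4.57 to 69.9 ± 4.92 CPM (0.59 ± 0.09, edgeR adjusted p = 0.0011). Tet1, which oxidises methylcytosine, fell from 7.57 ± 0.408 to 5.3 ± 0.646 CPM (-0.51 ± 0.11, edgeR adjusted p = 0.018), and the call was lost on leaving out 4 libraries, 18M replicate 3 among them (edgeR adjusted p = 0.067). Dnmt3a, a methyltransferase of new sites, was at 272 ± 12.5 and 246 ± 10.4 CPM and was not called (-0.14). Gadd45b, linked to demethylation and stress, was at 2.06 ± 0.566 and 3.54 ± 0.929 CPM and was not called (0.78, edgeR adjusted p = 0.15). None of 58 histone modifiers or 45 DNA repair genes was called.

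Cytoskeletal and axonemal genes included some steep changes. Csrp3, a LIM protein of the muscle sarcomere, was at 2.99, 2.87, 3.58 and 3.03 CPM at 3M and at 25.2, 22.1, 16.2 and 22.2 CPM at 18M. The lowest 18M library was over 4 times the highest 3M library (2.78 ± 0.15, edgeR adjusted p = 2.5e-08). It was at 17 ± 1.34 CPM at 12M and 22 ± 3.39 CPM at 24M, so most of the difference was present at 12M. Nefh, the heavy neurofilament chain, rose from 24.0 ± 1.89 to 33.5 ± 5.67 CPM, and the call was lost on leaving out 7 of the 16 libraries in turn. Of 28 listed genes of the motile axoneme and of sperm 11 were tested, of which 2 rose (18.2%, beside 1.68% of all genes tested) and 2 fell (18.2%, beside 0.961%). Dnaic2, an intermediate chain of axonemal dynein, fell from 11.7, 15.8, 15.2 and 14.2 CPM to 3.57, 3.66, 1.77 and 2.26 CPM (-2.33 ± 0.28, edgeR adjusted p = 0.0001). Spaca6, needed for the fusion of sperm and egg, fell from 22.7 ± 0.161 to 6.03 ± 1.16 CPM (-1.91 ± 0.15). Most of its estimated counts were of 2 transcripts annotated as keeping an intron. Spaca6-212 held 62.5% ± 1.06 at 3M and 65.5% ± 8.03 at 18M, and Spaca6-211 held 22.9% ± 1.31 and 13.4% ± 7.04. The 2 that rose were Pate2, a small secreted protein of the male tract (2.41 ± 0.28) that overlaps Hyls1 by 115 bases, and Adam1b, a sperm protease-like protein (1.99 ± 0.19). Adam1b lies within Tmem116 on the opposite strand, and Tmem116 rose as well, from 8.38 ± 0.546 to 22.1 ± 1.73 CPM (1.4 ± 0.08). Dnah7c, a dynein heavy chain with a close copy next to it, Dnah7b, rose by 2.02 ± 0.34, and Dnah7b by 0.99 ± 0.25, whose call was lost on leaving out any of 14 of the 16 libraries (0.87 and edgeR adjusted p = 0.14 without 18M replicate 3). Counts can be split between copies, so both values are uncertain.

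Further large changes fell in no list. Glb1l3, a galactosidase-like gene, was at 26.2, 22.9, 23.3 and 22.5 CPM at 3M and at 93.4, 86.8, 92.7 and 82.0 CPM at 18M (1.9 ± 0.09, edgeR adjusted p = 1e-08). Both groups were narrow, and the 12M and 24M means, 81.4 ± 7.13 and 87.4 ± 8.41 CPM, were near that of 18M. Plekhh2 fell from 10.7 ± 1.51 to 2.38 ± 0.305 CPM (-2.17 ± 0.17). Neurl1a, a ubiquitin ligase of neurons, fell from 9.94 ± 1.02 to 2.36 ± 0.327 CPM (-2.07 ± 0.24). Tbc1d9, a protein with a Rab GTPase-activating domain, fell from 16.5 ± 2.13 to 4.58 ± 0.466 CPM (-1.84 ± 0.14), by way of 8.47 ± 1.06 CPM at 12M. Dusp26, a phosphatase, fell from 8.02 ± 0.792 to 2.41 ± 0.702 CPM (-1.73 ± 0.29). Cttnbp2, a cortactin-binding protein of neurons, fell by 1.4 ± 0.2 on the log2 scale. Nrep, a small neuronal protein linked to axon regeneration, fell by 1.41 ± 0.14. None of the protein-coding genes named here with a fitted change of at least 2-fold lost its call on leaving out any single library.

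The genes of the visual response itself gave no call. Gnat1, the rod transducin alpha subunit, was at 4600, 5410, 5190 and 5700 CPM at 3M and at 4060, 4180, 3330 and 3960 CPM at 18M. All 18M libraries were below those of 3M, but the log2 fold change of -0.43 ± 0.16 did not pass the threshold (edgeR adjusted p = 0.23). Pdc, phosducin, which binds transducin beta and gamma, was at 2100 ± 293 and 1560 ± 150 CPM (-0.43 ± 0.13, edgeR adjusted p = 0.12). In the 24 phototransduction genes the log2 fold change ran from -0.44 for Unc119 to 0.26 for Gucy2f with a median of -0.15, and 18 were below 0. None of 13 outer segment genes, 9 of retinoid handling, 26 of the ribbon synapse, 43 of cilium transport or 19 rod ion channels was called. A missed threshold does not show that these genes are equal at both ages.

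**Figure D4:**
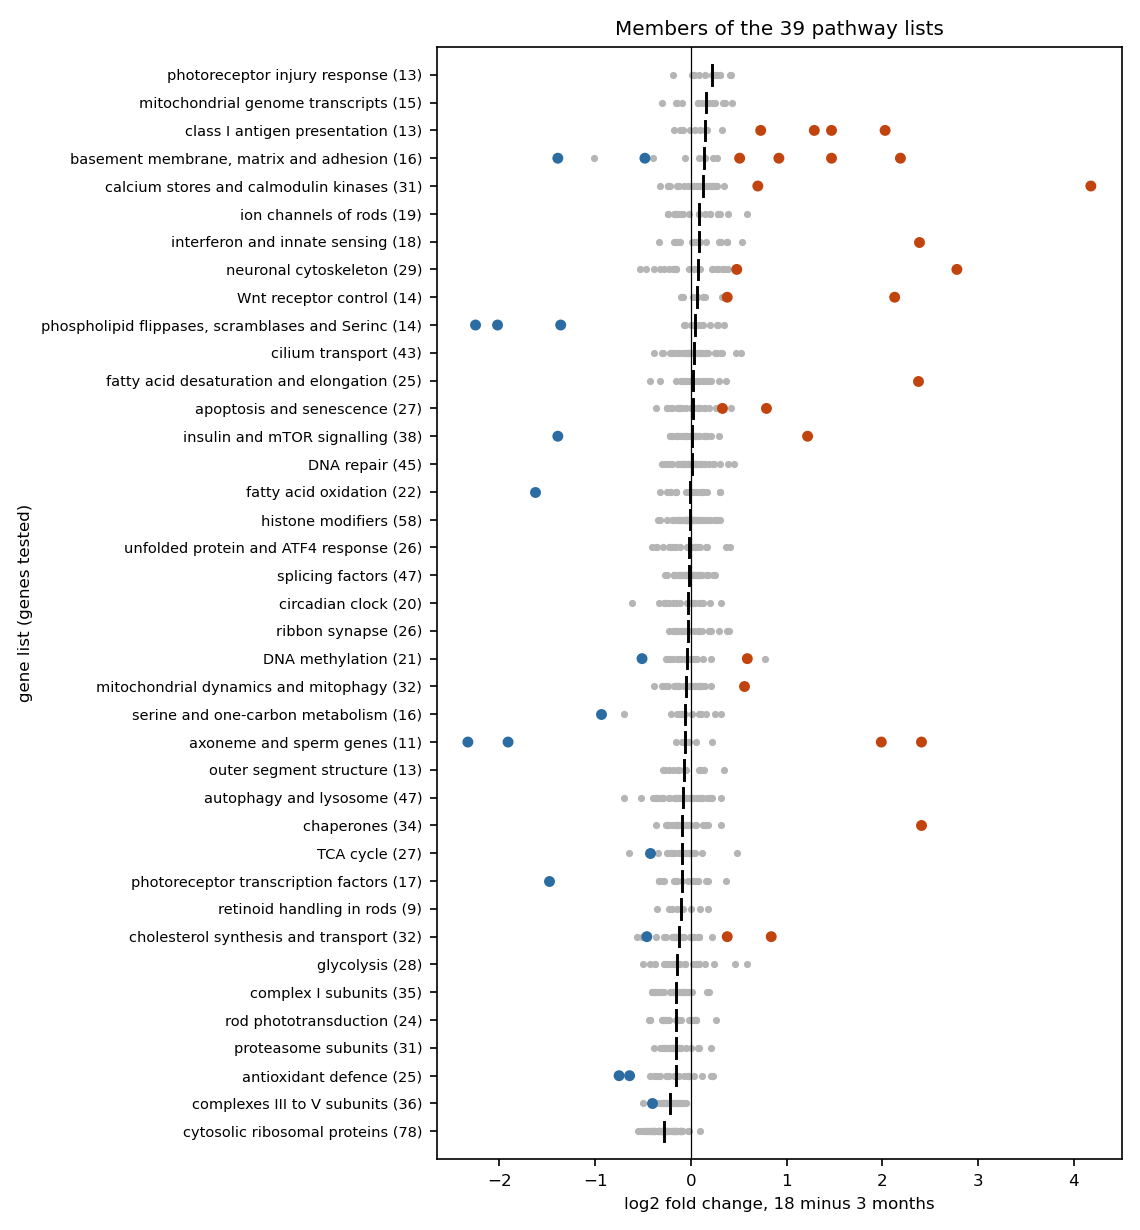
Each row is 1 of 39 pathway lists with the number of genes tested, each point is the log2 fold change of a member at 18M over 3M, and the black bar is the list's median. Called members are red (higher) or blue (lower), medians lie between -0.28 and 0.22, and 18 lists have no called member.

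Across the 39 lists, 43 of 1068 tested genes were called, beside 322 of 12177 (2.64%) over all genes tested. The called genes mostly stood alone in their list. For 38 of the 322 called genes (11.8%) the next tested gene was called in the same direction, against 1.68% of all genes tested that rose and 0.961% that fell. Of these pairs 21 overlap, so they can share reads, and 17 lie apart as GENCODE draws them, among them Col4a4 with Col4a3. Those apart include the close copies Dnah7b and Dnah7c. They also include Gm28876 with Gm28265, which RefSeq draws mostly as 1 gene. Lying apart thus does not exclude shared reads.

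A noncoding gene on chromosome 15 had next to no counts at 3M. Gm28876, a long noncoding RNA at chr15:103096151-103102111 on the minus strand (GENCODE on GRCm38), had 0, 1, 1 and 0 counts in the libraries of 3M and 197, 111, 220 and 138 counts in those of 18M. Scaled to library size the ratio of 18M to 3M was 380, with an exact 95% counting interval from 105 to 3140, which covers counting error only. It was at 1.8 ± 0.525 CPM at 12M, 7.37 ± 1.62 CPM at 18M and 12.3 ± 1.93 CPM at 24M. It was the only gene of 12177 (0.00821%) called between 12M and 18M (2.04, edgeR adjusted p = 0.0019), where 271 genes had an unadjusted p under 0.05. Between 18M and 24M no gene (0.0%) was called by edgeR, and 680 had an unadjusted p under 0.05. The change from 3M to 12M gave 119 genes higher (0.977%) and 50 lower (0.411%), or 1.39% in all. In these steps 12M replicate 4 and 24M replicate 3 stood apart from their ages. Their median correlations with the other libraries of their age were 0.9401 and 0.949, against 0.9743 or more for every other library. Both are absent from the authors' normalized table, and their part in these counts was not tested. Few or no calls at a step do not show that its ages are equal.

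Gm28265, another long noncoding RNA, ends 172 bases upstream of the start of Gm28876 on the same strand, and Smug1, described above, lies a further 48687 bases upstream. Gm28265 was at 8.97, 4.87, 3.46 and 4.67 CPM at 3M and at 19.4, 14.5, 105 and 30.6 CPM at 18M. The groups did not overlap (2.94, edgeR adjusted p = 0.0036), but 18M replicate 3 was far above the rest, and without it the change was 1.96 (edgeR adjusted p = 0.0019). RefSeq draws Gm28876 as 1 gene over chr15:103095186-103104398, which takes in most of Gm28265. The bases before that RefSeq start, chr15:103104399-103104648 of GRCm38.p6 on the minus strand, which GENCODE draws in part as the first bases of Gm28265, are shown because both noncoding genes of the locus rose. Capitals mark the single match to the NRL element, on the opposite strand as TCAGCA.
Gm28876: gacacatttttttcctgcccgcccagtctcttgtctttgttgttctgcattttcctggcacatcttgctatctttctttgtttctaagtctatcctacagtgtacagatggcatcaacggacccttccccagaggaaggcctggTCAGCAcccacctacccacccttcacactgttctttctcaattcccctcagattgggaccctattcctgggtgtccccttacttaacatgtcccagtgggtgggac
The CRX core is not in this window, and the match is a description of letters and no evidence of binding. Of the other noncoding genes, 2410124H12Rik rose from 4.0 ± 0.709 to 10.0 ± 0.476 CPM (1.32 ± 0.12), and it shares 11631 bases with Clic6, a chloride channel gene on the same strand that rose by 1.28. Gm28373 (-0.85) and Gm37855 (-0.56) fell, and they overlap Itpk1 (-0.95) and Kirrel (-0.91), which also fell. The call of Gm37855 was lost on leaving out any of 5 libraries, 18M replicate 3 among them (-0.58, edgeR adjusted p = 0.061), and that of Gm28373 on leaving out either of 2. Each of these values can hold reads of its partner.

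The gamma protocadherins, cell surface adhesion proteins of neurons made from 1 cluster of variable exons joined to shared constant exons, rose at 9 of 21 tested genes (beside 1.68% of all genes tested), a group chosen after its values were seen. Pcdhgb6 was at 38.5, 39.3, 39.9 and 40.6 CPM at 3M and at 57.6, 64.4, 74.4 and 71.0 CPM at 18M (0.76 ± 0.12, edgeR adjusted p = 0.0016). Pcdhga9 rose from 32.3 ± 2.44 to 61.4 ± 6.48 CPM (0.92 ± 0.17). Pcdhgc3, near the end of the cluster, was at 18.3 ± 0.134 and 19.1 ± 2.24 CPM and was not called (0.06), and it was the only one of the 21 whose groups overlapped. The median was 0.63, and since the genes share exons their estimates are not independent. The count of rises fell to 3 without 18M replicate 3 and likewise without 18M replicate 4, was 4 to 6 without 1 of the 3M libraries, and was 15 without 12M replicate 4. Of 5 tested genes of the beta cluster none was called, with a median of 0.07. The 1 tested gene of the alpha cluster rose, with a log2 fold change of 1.04.

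The share of a gene's estimated counts held by single transcripts was compared for 95 transcripts of 59 genes. The smallest p that 4 against 4 libraries allow is 0.0286 in the exact two-sided permutation test, and after Benjamini-Hochberg adjustment no share passed, the smallest value being 0.143. For Nod2, as an example without overlap, transcript Nod2-202 held 97.2% ± 3.39 of the counts at 3M and 84.5% ± 4.1 at 18M. In the authors' deposited table of comparisons, 315 of the 322 called genes are listed, and the difference of 18M from 3M has the same sign for all 315. That table comes from libraries of the same series, and the genes were picked here for this difference. The shared signs are therefore no independent evidence.

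**Figure D5:**
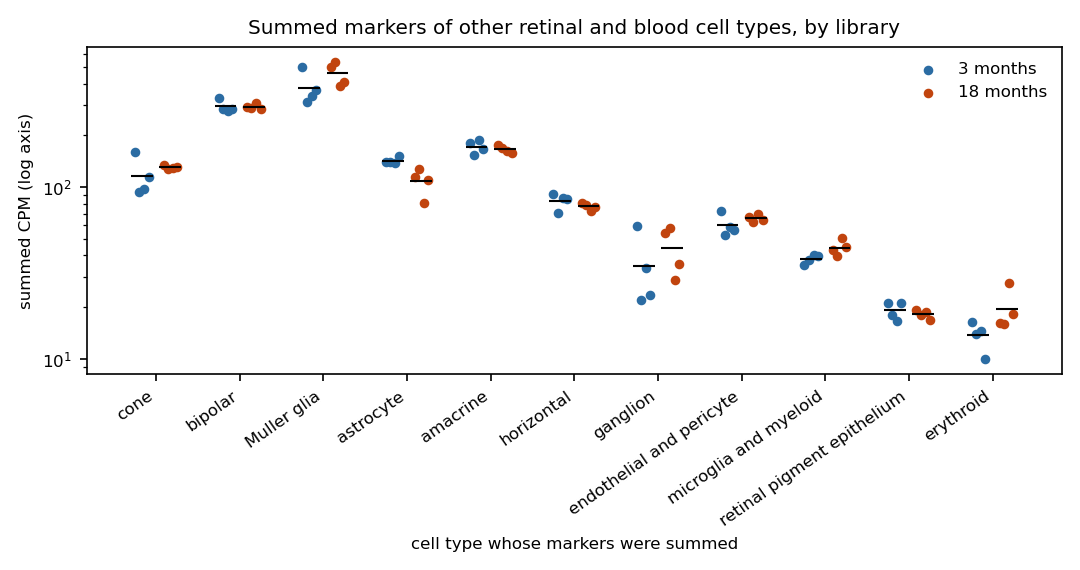
The summed CPM (log axis) of marker lists for 11 cell types other than rods is plotted for each library of 3M (blue) and 18M (red), with a line at each mean. The ranges of both ages overlap for each list except the astrocyte list.

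Marker sums of other cell types were compared once for the whole sort. With 4 libraries against 4 the smallest exact p is 0.0286, so over 11 lists a single list with full separation reaches only 0.314 after adjustment, and the adjusted values cannot show that the sums are equal. The astrocyte list had that smallest p, at 138 to 152 CPM at 3M and 81.1 to 127 CPM at 18M (exact two-sided permutation p = 0.0286, adjusted 0.314), with Aldh1l1, S100b, Fabp7 and Gja1 under 1 CPM. Most of this sum came from 1 of its 9 markers, Aldoc, which is also in the list of glycolysis genes and was not called. Aldoc was at 131 ± 6.23 CPM at 3M and 96.9 ± 19.3 CPM at 18M. The whole sum was at 143 ± 6.33 and 108 ± 19.4 CPM, so its fall is largely that of 1 gene. The cone sum was 116 ± 31.1 CPM at 3M and 131 ± 3.01 CPM at 18M, and no tested cone marker was called.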

How the data were processed

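RNA of sorted rods was sequenced in 4 libraries at each of 4 ages. The authors deposited estimated counts per transcript, of which 51.2% were not whole, a CPM signal per gene for all libraries, a normalized CPM signal for 13 libraries, and a table that per the file headers holds log2 differences from 3M, an F statistic (a score), and p-values. Per the submitters' processing notes, GRCm38.p4, kallisto 0.42.5, limma 3.32.2 and edgeR 3.13.9 were used, in roles that are not stated. The sources used here do not give the counting's annotation or whether it used strand.

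Here 111896 of 113468 transcripts were matched by identifier to GENCODE M21 genes. The rest held 0.73% to 1.08% of a library's counts. They were summed per gene, then rounded to whole numbers. Totals were 20724678 to 28779012 per library of 3M and 18M. The 12177 genes that reached 5 CPM in 4 or more of the 16 libraries were tested with edgeR 4.0.16 in R 4.3.3 (quasi-likelihood F-test, TMM, a mean per age over all 16 libraries, Benjamini-Hochberg adjustment, called under 0.05). The common biological coefficient of variation was 0.169. The fit's code was tested on simulated data. All libraries of an age differed by more than sampling noise. The reads carry no molecular identifiers that would tell PCR copies apart, so intervals cover counting error only.

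Named genes are the 15 largest called rises and falls among protein-coding genes of at least 5 CPM without overlap, up to 4 called members per list, 2 noncoding genes per direction, and a fixed set. Some genes that this rule names are not reported here. Gm28265, Dnah7b, Tmem116, Mmp2 and the protocadherins were chosen after their values were seen, as were genes that overlap a named gene. The comparison, the 50 gene lists and the rule were chosen with earlier results of these data known. Alternatives were DESeq2 1.42.0, limma 3.58.1 (voom, with and without quality weights, and on log2 of the authors' gene CPM with pseudocounts of 0.5 and 2), DESeq2 size factors, a minimum of 1 CPM or none, the 8 libraries alone, a replicate block, the 13 libraries, a transcript-length covariate, and each library left out in turn. The main fit did not treat same-numbered libraries of 3M and 18M as pairs.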

Additional observations from a re-analysis of the deposited data

Results flagged for a closer look

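In 184 groups of 4 libraries (named genes and marker sums at 3M and 18M), 10 had 1 library set off from the other 3 by more than Dixon's 95% limit, which chance passes in about 1 of 20 groups. For genes that rose, Calcr in 3M replicate 1 was at 0.912 CPM (others 0.604 to 0.652), Irs1 in 3M replicate 4 at 16.1 CPM (6.35 to 7.62), Col4a4 in 18M replicate 3 at 134 CPM (106 to 109), and Bcl2l11 in 18M replicate 2 at 55.3 CPM (51.6 to 52.1). For genes that fell, Atp8b2 in 18M replicate 4 was at 1.97 CPM (2.86 to 3.04), Dusp26 in 3M replicate 4 at 9.21 CPM (7.54 to 7.73), Decr1 in 18M replicate 3 at 3.21 CPM (1.9 to 2.12), and Tet1 in 3M replicate 3 at 8.19 CPM (7.36 to 7.39). The cone gene Gnat2 was at 3.42 CPM in 18M replicate 3 (4.48 to 4.67), and the bipolar marker sum at 330 CPM in 3M replicate 1 (279 to 287). Of the called genes among these, Tet1 lost its call when any of 4 of the 16 libraries was left out, and the others kept theirs on leaving out any 1 library.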

How the results depend on the processing

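Counts of called genes depended on the fit more than the direction of named genes did. Against 205 higher and 117 lower, DESeq2 called 330 and 198, voom with quality weights 652 and 458, a fit of the 13 libraries that the authors normalized 454 and 270, and a transcript-length covariate 420 and 243. Lower genes numbered 187 with a minimum of 1 CPM and 202 with 3M and 18M alone. Leaving out 1 library gave 137 to 309 higher and 79 to 205 lower genes, the highest of both without 12M replicate 4. The cause of these shifts was not tested. With a replicate block 171 were higher and 98 lower. Deviations of same-numbered libraries of 3M and 18M had correlations of 0.034, -0.025, -0.15 and 0.561. Those of differently numbered libraries ran from -0.614 to 0.458. Such correlations cannot tell whether same-numbered libraries shared a sort or a batch, and this was not tested. Some genes that were not called changed sign. Nr2e3 was at -0.01 with a minimum of 1 CPM and with no filter, at -0.02 without 3M replicate 1 and at -0.04 without 18M replicate 4. Glul was at -0.02 with either pseudocount on the authors' CPM. Opn1sw was at 0.24 with voom quality weights, 0.08 and 0.06 with pseudocounts of 0.5 and 2, 0.03 with the length covariate and 0.22 without 3M replicate 1 (lowest -0.33, without 3M replicate 2). Gnat2 was at 0.09 with voom, 0.5 with quality weights, 0.08 and 0.02 with the pseudocounts and 0.42 without 3M replicate 1 (lowest -0.51, without 3M replicate 2). Pcdhgc3 was at -0.02 without 18M replicate 4 and at 0.12 without 18M replicate 1. The bipolar marker sum, lower by 1.45 CPM at 18M in the main scaling, was higher by 0.07 CPM with scaling to total counts, and by 9.96, 0.374 and 1.29 CPM without 3M replicate 1, 18M replicate 2 and 18M replicate 4, with a lowest difference of -6.76 CPM without 3M replicate 3. With 3 libraries against 4, the exact test of a sum cannot go below 0.0571. On the authors' gene CPM, limma did not call Dhcr7, Cyp51, Cycs, Cat, Tet1, Bcl2l11, Itpr2, Fzd5, Nefh, Car2 or Pcdhga4 with either pseudocount. Genes near the 5 CPM minimum rest on few counts at 1 age, which limits the precision of their fold changes.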

Other observations

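Further called genes that are outside the named groups were Ect2 and Racgap1, which act together in cytokinesis and whose values were known when they were picked. Ect2 was at 4.01, 3.28, 3.14 and 3.07 CPM at 3M and at 7.66, 6.98, 10.5 and 7.71 CPM at 18M (1.28 ± 0.16, edgeR adjusted p = 0.00011). Racgap1 was at 11.3, 10.9, 13.3 and 11.5 CPM at 3M and at 23, 24.1, 19.0 and 22.8 CPM at 18M (0.92 ± 0.11, edgeR adjusted p = 0.0001). Neither gene's groups overlapped.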
